A study of Mus musculus with 4 samples.

Results

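The mature migratory dendritic cell effector genes examined here were Fscn1, Il4i1, Nudt17, Serpinb9, Cacnb3, Apol7c, Marcksl1 and Tmem123. They form a given list of gene symbols, and their probes were found by matching the transcript accession on the array to RefSeq. Each of the 8 genes had 1 probe, printed as 1 spot, so that the list held 8 of the 39429 probes and 8 of the 17967 genes tested. All 8 were well above background on all 4 arrays. The list was drawn up with earlier results of these data known, so its counts are descriptions and not independent evidence of a direction.

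The Rbpj-deficient group (RFF11) came from mice with Rbpj fl/fl and CD11c-cre, and the control group (RFF) from mice with Rbpj fl/fl alone, so that both carried the loxP-flanked alleles and differed by the cre as well as by the deletion it makes. The cre is driven by the promoter of Itgax, the gene of CD11c, and acts in cells that switch that promoter on. Both groups were C57BL/6 females, 8 weeks of age, whose marrow was grown for 6 days in 20 ng/mL GM-CSF, a cytokine that turns marrow precursors into dendritic cells (BMDC), after which CD11c+ cells were taken. RNA of 4 mice was pooled for each genotype and read on 2 one-colour arrays per genotype, and nothing states whether separate pools were used for them. The p-values therefore cover array-to-array spread alone, which may be no more than technical.

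Dendritic cells that meet a microbial or tissue signal stop sampling their surroundings, rebuild their actin skeleton, extend long processes and move through lymph vessels to the lymph node, where they meet T cells. During this change they switch on a shared set of genes for movement, for survival among cytotoxic lymphocytes and for control of T cells. GM-CSF cultures hold cells at several stages of this change. Fscn1, the actin bundler fascin, is a classical marker of the mature state.

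On the arrays Rbpj, the DNA-binding partner of Notch receptors, read 1.37 and 1.44 in Rbpj-deficient cells, against 2.69 and 2.61 in control cells. Levels here and below are log2 spot signal minus the 75th percentile of the same array, so that a difference of 1 stands for a factor of 2 in signal. A second Rbpj probe differed by -1.24, against -1.25 for the first, which read 42.1% of the control signal in Rbpj-deficient cells. Where the probes lie relative to the deleted part is not known here. Of 9 shared dendritic cell markers on the array, 9 were well above background on all arrays, with summed levels of 750 to 792 in Rbpj-deficient cells and 808 to 837 in control cells (sums here are of signal divided by the array's 75th percentile, on the linear scale), and none of the 9 passed the test (limma, 4 at an unadjusted p under 0.05). Of 9 neutrophil markers 8 were tested and 3 were higher, where 1.04% of all genes were called higher. At an unadjusted p under 0.05 in limma, 7 of the 8 were higher, and 24.1% of all genes passed in either direction. The summed level was 39.9 to 48.4 in Rbpj-deficient cells, against 23.7 to 26.7 in control cells, with Retnlg not well above background anywhere. Of 11 macrophage and monocyte markers 1 was lower, where 0.84% of all genes were called lower. At an unadjusted p under 0.05 in limma, 5 of the 11 were lower and 1 higher. The sums over the 11 were 387 to 389 in Rbpj-deficient and 417 to 445 in control cells. Mast cell and basophil markers summed to 1.99 to 2.35 in Rbpj-deficient cells and 1.41 to 1.59 in control cells. Of 5 tested 1 was higher (4 at an unadjusted p under 0.05), and Ms4a2, Fcer1a and Cma1 were not well above background. Of the T and NK markers 1 of 5 tested was higher (3 higher and 1 lower at an unadjusted p under 0.05), with Ncr1 not well above background. Their median log2 change was 0.63, although the sums were 4.10 to 4.13 in Rbpj-deficient and 4.33 to 4.65 in control cells. Such sums weight the brightest markers most. Of 5 B cell markers on the array Cd79b alone was tested. It was well above background on all 4 arrays and stood at 0.57 without overlap of the genotypes (limma unadjusted p = 0.00771, adjusted p = 0.0931), the sum was 0.113 to 0.161 in Rbpj-deficient and 0.0922 to 0.0959 in control cells, and Pax5 and Ms4a1 were not well above background on any array. Of 6 immediate-early and heat shock genes, known to respond to handling of cells, 0 passed in limma, but 5 lay above 0 and 4 were higher at an unadjusted p under 0.05, with sums of 85.1 to 88.1 in Rbpj-deficient and 75.3 to 75.4 in control cells. The part of these other cells and of handling in the results below was not tested.

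As 7 of the 8 genes read lower in Rbpj-deficient cells, the stretch before each gene's start was read from RefSeq (build GRCm38.p6), which held all 8 genes and 10 start sites for them. The windows cover the 250 bases before the start. They are shown for the 3 genes that fell, for the only gene with a higher level, Apol7c, and for Cacnb3, whose first start holds the RBPJ core. Capitals mark a match on either strand to the RBPJ core TGGGAA, to a kappaB form (GGGA, any 4 bases, then CC), to an interferon response form (GAAA, any 2 bases, then GAAA) or to the PU.1 form GAGGAAGT.
Nudt17, chr3:96708561-96708810, minus strand: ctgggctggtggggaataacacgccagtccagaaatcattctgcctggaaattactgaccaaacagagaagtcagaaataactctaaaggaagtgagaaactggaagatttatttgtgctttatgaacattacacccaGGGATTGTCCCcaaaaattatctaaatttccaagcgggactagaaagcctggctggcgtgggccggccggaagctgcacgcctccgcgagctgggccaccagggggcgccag
Il4i1, chr7:44836038-44836287, plus strand: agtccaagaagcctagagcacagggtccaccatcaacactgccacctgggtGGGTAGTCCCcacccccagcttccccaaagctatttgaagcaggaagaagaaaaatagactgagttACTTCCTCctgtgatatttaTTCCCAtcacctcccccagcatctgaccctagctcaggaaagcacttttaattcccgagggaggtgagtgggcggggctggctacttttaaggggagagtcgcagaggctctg
Serpinb9, chr13:33004291-33004540, plus strand: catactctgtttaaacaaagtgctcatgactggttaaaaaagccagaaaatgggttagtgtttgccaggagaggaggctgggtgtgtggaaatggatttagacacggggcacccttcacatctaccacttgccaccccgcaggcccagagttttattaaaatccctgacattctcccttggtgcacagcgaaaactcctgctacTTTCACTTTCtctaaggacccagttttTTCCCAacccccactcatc
Cacnb3, chr15:98632078-98632327, plus strand: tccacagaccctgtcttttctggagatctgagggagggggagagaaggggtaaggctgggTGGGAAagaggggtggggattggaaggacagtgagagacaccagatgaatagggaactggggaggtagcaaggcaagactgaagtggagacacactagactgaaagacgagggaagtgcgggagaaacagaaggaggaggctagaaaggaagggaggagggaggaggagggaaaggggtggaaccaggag
Apol7c, chr15:77533316-77533565, minus strand: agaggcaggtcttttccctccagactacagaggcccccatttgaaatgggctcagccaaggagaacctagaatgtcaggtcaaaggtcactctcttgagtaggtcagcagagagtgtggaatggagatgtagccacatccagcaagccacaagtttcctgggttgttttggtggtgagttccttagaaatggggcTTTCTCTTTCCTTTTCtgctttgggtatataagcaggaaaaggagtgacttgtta

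The RBPJ core was found in the windows of 3 of the 8 genes, with its first base at -113 in Il4i1, -19 in Serpinb9 and -190 in Cacnb3, counted from the start site. Of all 27025 genes with such windows, 24.1% had it in at least 1 window. The kappaB form was found for 4 of the 8, against 19.7% of all genes, namely Il4i1 at -199, Nudt17 at -112 and again on the other strand at -111, the second start of Cacnb3 at -34, and both starts of Tmem123. The TGGGAA core and the kappaB form share the letters GGGA and can overlap, but in these windows no base lay in both. The interferon response form was found in Serpinb9 at -46 and at -55 and -49 in Apol7c, where the pair overlaps, against 3.46% of all genes. The PU.1 form was found in Il4i1 at -133, against 2.79% of all genes. No such match was found before Fscn1 or Marcksl1. A match describes the letters and does not show a bound site.

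The comparison of interest was whether these genes differed between Rbpj-deficient and control cells. Nudt17, Il4i1 and Serpinb9 fell in Rbpj-deficient cells, to between 62.1% and 72.0% of the control signal, and none rose. The other 5 did not pass the threshold of an adjusted p under 0.05, although Cacnb3, Fscn1, Tmem123 and Marcksl1 read lower and Apol7c higher. On limma's test with Benjamini-Hochberg adjustment over all 17967 genes, 3 of the 8 were called, where 1.88% of all genes were. These 3 were lower, as were 0.84% of all genes, and 0 of the 8 were higher, as were 1.04% of all genes. At an unadjusted p under 0.05, 7 of the 8 passed, 1 of them higher, against 24.1% of all genes. The arrays of the 2 genotypes did not overlap for any of the 8, with 7 lower, where 32.3% of all genes were lower without overlap, and 1 higher, where 26.8% were. The median log2 change was -0.34 over the 8 genes and -0.01 over all genes tested. In RNA of a mixed culture a smaller number of cells that express a gene and less RNA in each such cell cannot be told apart.

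**Figure D1:**
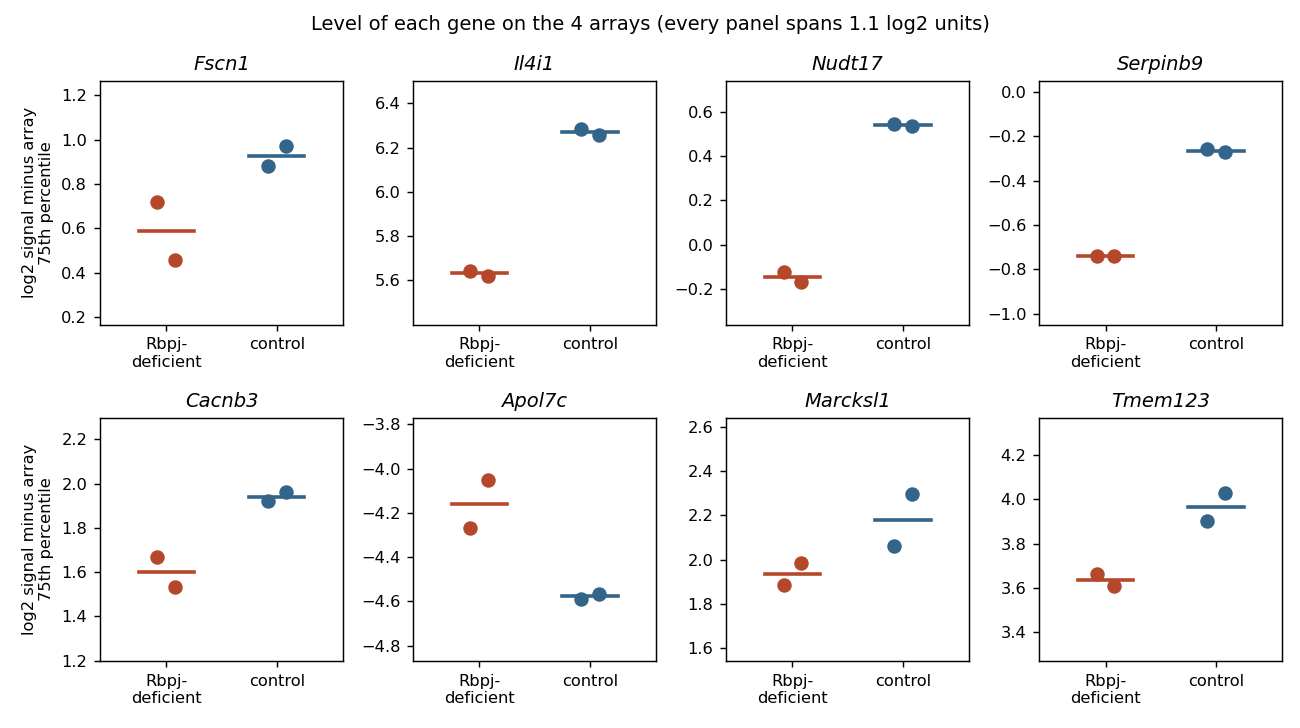
Level of each of the 8 genes on the 2 Rbpj-deficient (left, red) and 2 control (right, blue) arrays, as log2 signal minus the 75th percentile of the array. Points are arrays and lines are means, and every panel has the same span. Only Apol7c lies higher in Rbpj-deficient cells, and the points of Nudt17, Il4i1 and Serpinb9 nearly coincide within each genotype.

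Nudt17 encodes a member of the nudix hydrolases, enzymes that cut nucleoside diphosphates linked to another group. Its probe, A_52_P518076, read -0.12 and -0.17 on the Rbpj-deficient arrays, against 0.55 and 0.54 on the control arrays. Both Rbpj-deficient arrays lay below both control arrays by at least 0.66, while the arrays of 1 genotype differed by at most 0.05. The signal behind these levels was 1322 and 1287 units in Rbpj-deficient cells, against 2002 and 2065 units in control cells. Nudt17 fell by 0.69 on the log2 scale (SE 0.05, limma adjusted p = 0.0372). Its level in Rbpj-deficient cells was 62.1% of that in control cells, and 1.74% of all genes tested had a lower change.

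Il4i1 encodes a secreted enzyme that oxidises aromatic amino acids such as phenylalanine and is known to restrain T cells. Its probe, A_55_P2087622, read 5.64 and 5.62 in Rbpj-deficient cells, against 6.28 and 6.26 in control cells. The gap between the genotypes was 0.61, and the arrays within each differed by 0.03 and 0.02. Its signal was 72052 and 71102 units in Rbpj-deficient cells, against 106709 and 108914 units in control cells, and no spot was saturated on any array. Il4i1 fell by 0.64 on the log2 scale (SE 0.05, limma adjusted p = 0.0379), to 64.2% of the control level.

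Serpinb9 encodes an inhibitor of granzyme B that shields dendritic cells and cytotoxic lymphocytes from that protease. Its probe, A_55_P2134246, read -0.74 and -0.74 in Rbpj-deficient cells, against -0.26 and -0.27 in control cells. The replicates differed by 0.003 in Rbpj-deficient and 0.01 in control cells, while the genotypes were 0.47 apart. The change of -0.47 (SE 0.05, limma adjusted p = 0.0465) left 72.0% of the control level and was the smallest of the 3 that passed.

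These 3 calls were close to the threshold, and each ended when any 1 of the 4 arrays was left out (Rbpj-deficient replicate 1 or 2, or control replicate 1 or 2). The changes themselves then stood at -0.71 to -0.67 for Nudt17, -0.65 to -0.63 for Il4i1 and -0.48 to -0.47 for Serpinb9, with limma adjusted p-values of 0.110 to 0.163, 0.116 to 0.168 and 0.154 to 0.194.

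**Figure D2:**
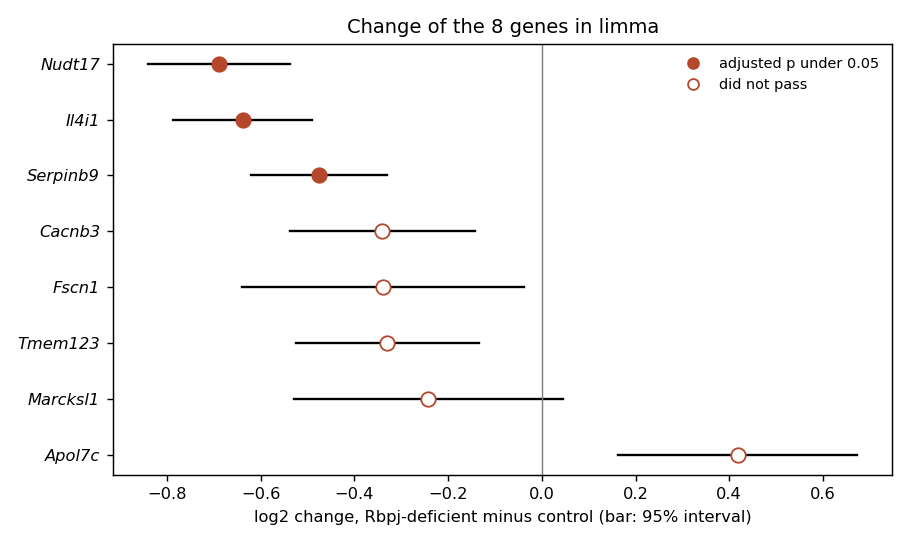
Log2 change of each gene, Rbpj-deficient minus control, with its 95% interval from the moderated fit. Filled points passed an adjusted p of 0.05. Nudt17, Il4i1 and Serpinb9 passed at -0.69, -0.64 and -0.47, and the interval of Marcksl1 alone includes 0.

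Of the genes of the cell skeleton and membrane, none passed. Fscn1, on probe A_51_P366061, read 0.72 and 0.46 in Rbpj-deficient cells, against 0.88 and 0.97 in control cells. The highest Rbpj-deficient array lay 0.17 under the lowest control array, less than the 0.26 between the 2 Rbpj-deficient arrays. The change was -0.34 (95% interval -0.64 to -0.04, limma adjusted p = 0.179), and leaving out one or the other Rbpj-deficient array moved it to -0.47 (replicate 1 left out) or -0.21 (replicate 2 left out). Marcksl1, a substrate of protein kinase C that binds actin and the plasma membrane, read 1.89 and 1.98 on probe A_51_P257550 in Rbpj-deficient cells, against 2.06 and 2.29 in control cells. These groups were 0.07 apart, the narrowest gap of the 8, and the 2 control arrays differed by 0.24. The change was -0.24 (95% interval -0.53 to 0.05, limma adjusted p = 0.259), with -0.12 when control replicate 2 was left out.

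Cacnb3 encodes the beta-3 subunit that helps bring voltage-gated calcium channels to the cell surface. On probe A_51_P259009 it read 1.67 and 1.53 in Rbpj-deficient cells, against 1.92 and 1.96 in control cells. The gap of 0.25 was wider than the 0.13 between the Rbpj-deficient arrays, and the change was -0.34 (95% interval -0.54 to -0.14, limma adjusted p = 0.0973). Tmem123, also called porimin, is a heavily glycosylated surface protein first described in a form of cell death with swelling. It read 3.66 and 3.61 on probe A_51_P421664 in Rbpj-deficient cells, against 3.90 and 4.03 in control cells. Its groups were 0.24 apart, and the change was -0.33 (95% interval -0.52 to -0.13, limma adjusted p = 0.0991).

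Apol7c belongs to the apolipoprotein L family of membrane-active proteins and was the only gene of the list with a higher level. On probe A_55_P2148062 it read -4.27 and -4.05 in Rbpj-deficient cells, against -4.59 and -4.57 in control cells. Both Rbpj-deficient arrays lay above both control arrays, by at least 0.30. This was a dim spot, with 74.8 and 87.3 units in Rbpj-deficient cells and 57.0 and 60.1 units in control cells, and it lay only 1.68 and 1.70 log2 units above the lowest signal called well above background on the Rbpj-deficient arrays and 0.91 and 1.25 above it on the control arrays. The change was 0.42 (95% interval 0.16 to 0.67, limma adjusted p = 0.104), and 0.20 when background was handled with normexp, which adds an offset of 50 units.

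**Figure D3:**
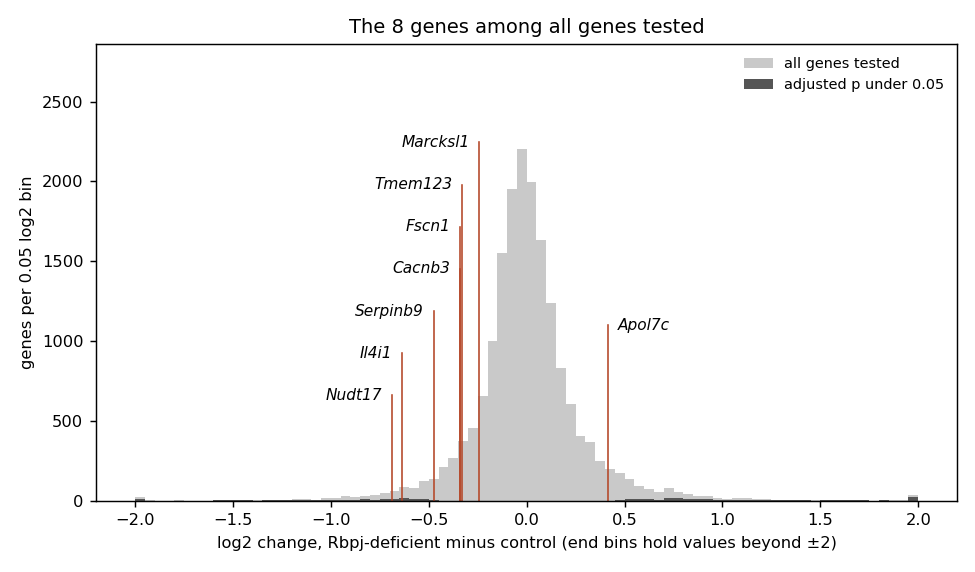
Number of genes per 0.05 of log2 change, Rbpj-deficient minus control, for all 17967 genes tested (light) and for those with an adjusted p under 0.05 (dark). The end bins pool all genes beyond -2 and 2. Lines mark the 8 genes, 7 of them below 0, and line heights carry no value.

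The 3 genes that passed were set apart from the other 5 by the spread of their arrays as well as by the size of the change. Replicates differed by 0.003 to 0.05 for the 3 and by 0.02 to 0.26 for the 5. The standard errors were 0.05 for each of the 3 and 0.07 to 0.11 for the others, and the gaps between genotypes were 0.47 to 0.66 and 0.07 to 0.30. Serpinb9 at -0.47 and Apol7c at 0.42 were thus close in size but on different sides of the threshold. Whether the change of one gene differs from that of another was not tested, and signals of different probes were not set against each other.

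**Figure D4:**
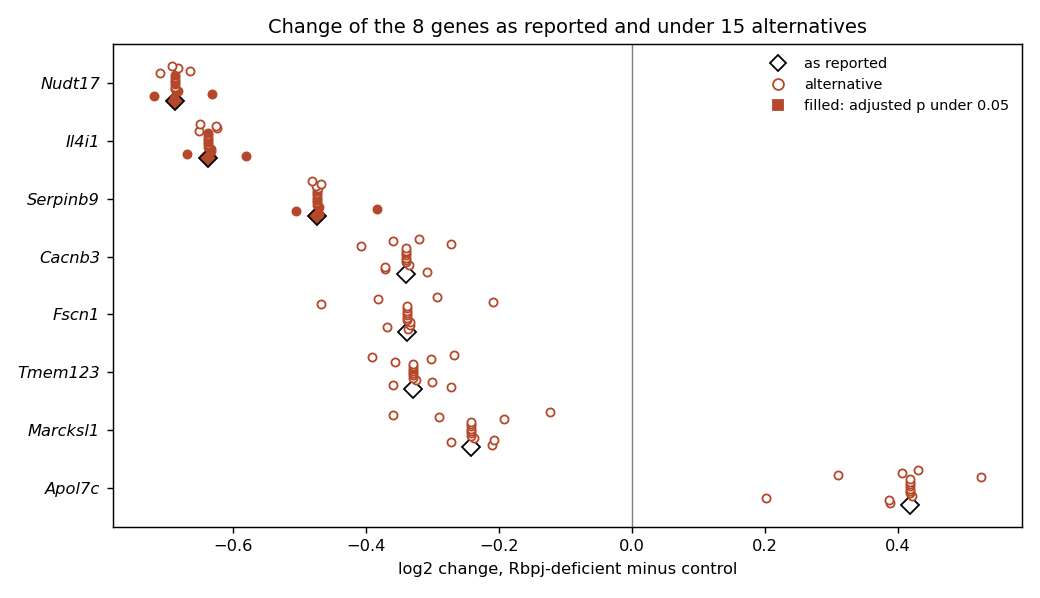
Log2 change of each gene as reported (diamonds) and under 15 alternatives in processing (circles), Rbpj-deficient minus control, filled where the adjusted p was under 0.05. No gene changed sign, Apol7c stayed above 0 at 0.20 to 0.53, and Nudt17 ranged from -0.72 to -0.63.

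Relatives of the 8 genes were examined to see whether the same families moved. Of 45 relatives 41 were on the array and 26 entered the test, and 0 passed in limma. At an unadjusted p under 0.05, 9 of the 26 were lower and 2 higher, and 24.1% of all genes reached this in either direction. The median log2 change of the 26 was -0.13. Among the serpins of the same clade the farthest from 0 was Serpinb6b at -0.42 (SE 0.05, limma adjusted p = 0.0566), with 1.23 and 1.25 in Rbpj-deficient cells and 1.67 and 1.65 in control cells, groups that did not overlap. Serpinb9b did not enter the test. Marcks, the kinase C substrate after which Marcksl1 is named, stood at -0.31 (limma adjusted p = 0.115), the nudix hydrolase Nudt19 at -0.24 (limma adjusted p = 0.125), Fscn3 at 0.08 (limma adjusted p = 0.763) and the sialomucin Cd164 at 0.09 (limma adjusted p = 0.472). Apol7b, a close relative of Apol7c, stood at 0.14 (limma adjusted p = 0.372), and as the probe sequences were not used here, signal shared between such copies cannot be separated.

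A pair of relatives was measured in 1 genotype only. Maob, a monoamine oxidase that is a flavin amine oxidase like Il4i1, was not well above background in Rbpj-deficient cells. It read 2.55-fold brighter in control cells (limma adjusted p = 0.116). Cacnb2, another calcium channel beta subunit, was measured in Rbpj-deficient cells at a brightness at least 1.41-fold above the bound for control cells, where it was not well above background (limma adjusted p = 0.115). The bound for Cacnb2 sets each control array at its lowest signal well above background. On both Rbpj-deficient arrays Maob read above the lowest such signal. Its 2.55 is thus an estimate from its own signals and not a bound.

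Partners of the 8 proteins gave no call either. Of 20 genes of actin bundling and protrusion 0 passed in limma, and the median was -0.09. At an unadjusted p under 0.05, 4 of the 20 were lower and 1 higher, against 24.1% of all genes in either direction. The farthest from 0 was Pls3, plastin 3, another actin bundler, at -0.52 (limma adjusted p = 0.0851), with -0.94 and -0.72 in Rbpj-deficient cells and -0.36 and -0.27 in control cells. Of 7 pore-forming calcium channel subunits, which need a beta subunit such as Cacnb3, 3 entered the test and 0 passed in limma (1 lower and 1 higher at an unadjusted p under 0.05), the farthest being Cacna1f at -0.71 (limma adjusted p = 0.183). Of the cytotoxic granule genes only perforin, Prf1, entered the test, at 0.13 (limma adjusted p = 0.323), and Gzmb, whose product Serpinb9 blocks, did not enter it.

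Other genes that mature dendritic cells are known to switch on were read beside the 8. Of 56 such genes 54 were on the array and 51 were tested. Ccl5, a chemokine, and Tspan3, a tetraspanin, fell, 0 rose and 49 did not pass, with 27 lower and 3 higher at an unadjusted p under 0.05, which 24.1% of all genes reached in either direction. The 2 calls of 51 compare with the 0.84% of all genes called lower. The median over the 51 was -0.25, 38 lay below 0, where 52.7% of all genes did, and the arrays did not overlap for 37 that read lower and 6 that read higher, against 32.3% and 26.8% of all genes. Tspan3 read 3.09 and 3.04 in Rbpj-deficient cells, against 3.75 and 3.83 in control cells, which is a fall by 0.73 in log2 units (SE 0.06, limma adjusted p = 0.0379). Ccl5 read 5.75 and 5.73 in Rbpj-deficient cells and 6.60 and 6.58 in control cells (limma adjusted p = 0.0322). Neither call held when any 1 of the 4 arrays was left out, where 0 of the list passed.

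Among the 49 that did not pass, the lowest changes were those of clusterin, Clu, at -1.13 (limma adjusted p = 0.0548), and of the T-cell ligand Cd70 at -0.91 (limma adjusted p = 0.0682). Clu read 0.54 and 0.53 in Rbpj-deficient cells, against 1.48 and 1.86 in control cells, so that its control arrays were far more spread than its Rbpj-deficient arrays. The highest were Lad1, an anchoring filament protein, at 0.34 (limma adjusted p = 0.188) and the cytokine signal inhibitor Socs1 at 0.26 (limma adjusted p = 0.135). Ccr7, the receptor that guides mature cells to the lymph node, was chosen for mention after its values were seen. It read 5.74 and 5.51 in Rbpj-deficient cells and 6.11 and 6.11 in control cells, a change of -0.48 (limma adjusted p = 0.0931). Of the 51 genes tested 38 read lower, Ccr7 among them, and 13 read higher.

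**Figure D5:**
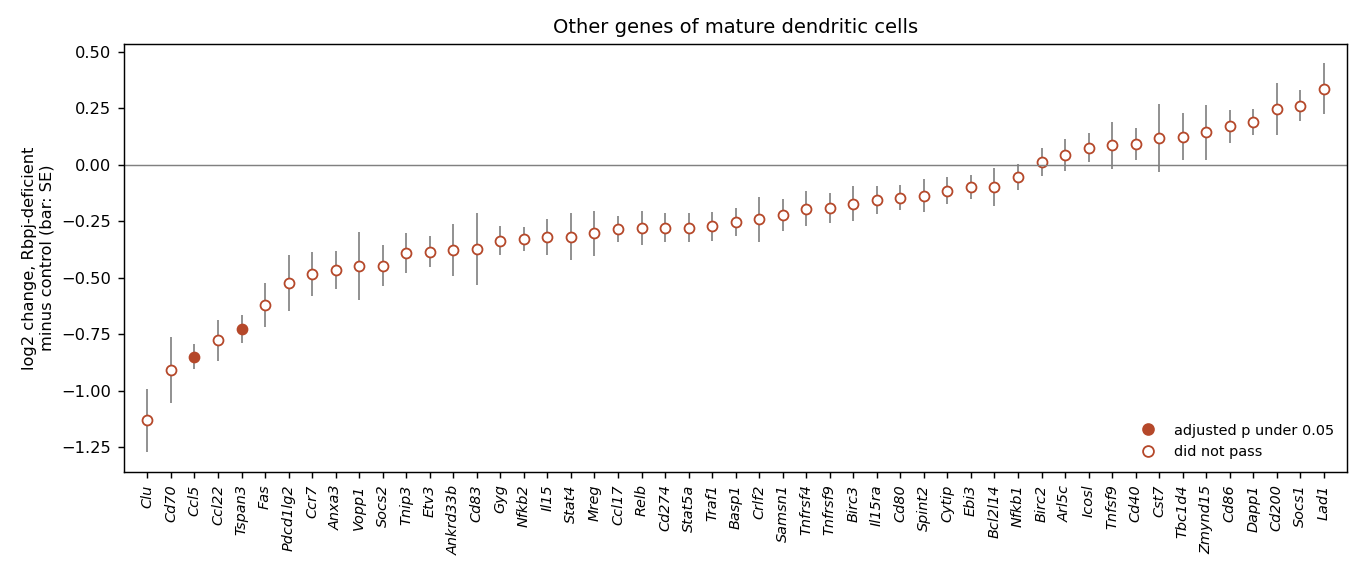
Log2 change of the 51 other mature dendritic cell genes tested, Rbpj-deficient minus control, with bars of 1 SE and the genes in order of change. Filled points, Ccl5 and Tspan3, passed an adjusted p of 0.05, and 38 of the 51 lie below 0.

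Genes with the most similar pattern were sought among 12279 named genes well above background on all 4 arrays, by the Euclidean distance between each gene's 4 centred levels and the mean of the 8. The mean centred level of the 8 was -0.15 and -0.18 on the Rbpj-deficient arrays and 0.14 and 0.19 on the control arrays. The 5 nearest were Shisa5 and Camk2g, both at a distance of 0.01, Adam15 at 0.01, Emc9 at 0.02 and Aldh3b1 at 0.02. Their changes lay between -0.34 for Camk2g and -0.32 for Aldh3b1 (limma adjusted p = 0.0718 and 0.0712), and none of the 5 passed. The distance rests on 4 arrays and is a description.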

How the data were processed

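Per the labels, total RNA pooled from 4 mice per genotype was labelled with Cy3 from 150 ng and hybridised to one-colour Agilent arrays, 1 per sample. Per the file headers, Agilent Feature Extraction 10.7.1.1 gave the spot intensity, whose processed intensity is corrected for background and spatial trend and was deposited without scaling between arrays. The table of log2 values deposited by the authors is of unstated make: how it was computed is not given in the sources used here. Against the scanner levels, it proved to be log2 with a per-array scaling and with each probe's median over the 4 samples at 0 (Pearson r across probes at least 0.99995 in each column, same direction, column medians of -0.034, 0.020, 0.053 and -0.030 for Rbpj-deficient replicates 1 and 2 and control replicates 1 and 2), so only its differences were used, as an alternative. The exact scaling by the authors stays unknown. Flags for outlier, saturated and well-above-background spots are other values deposited in the same files.

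Processed signal was taken to log2 and reduced by the 75th percentile over the 43020 gene spots of each array. Outlier spots (127 to 176 an array, none of the 8 genes) were left out and 0 spots were saturated. Between 55.2% and 58.4% of spots were well above background, and with 2 arrays a genotype the number of arrays limits the precision. Replicate spots were averaged. A probe entered the test if 1 genotype or both had it well above background on each array, and the brightest probe stood for a gene. Genotypes were compared in limma 3.58.1 (lmFit, eBayes; R 4.3.3) with Benjamini-Hochberg adjustment over 17967 genes and a threshold of 0.05. Intervals are 95% and use the moderated SE. The procedure was run on simulated data drawn from limma's own model, with planted changes larger than those of the 8 genes. That run cannot show how well changes as small as those of the 8 genes are found. All 4 arrays lay on 1 slide with 1 scan time. As the scan files hold no mean spot signal, normexp was run on median spot and background signals with an offset of 50. Of 39429 probes 26055 matched 1 symbol in RefSeq GRCm38.p6, 0 several and 13374 none; the headers give another build for the arrays, so that coordinates are printed only for RefSeq's own sequences.

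The members, gene lists and tests were chosen with earlier results of these data known. Genes were named by a rule: the 8 members, Rbpj, the mature genes past the threshold and the 2 highest and 2 lowest of the rest, the farthest relative or partner of each family and the 5 genes of most similar pattern. Ccr7, Serpinb9b, Gzmb, Cd79b and the undetected markers are named outside it. Some markers of other cells are not reported here. The samples' labels share replicate numbers, but nothing states that these mark pairs.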

Additional observations from a re-analysis of the deposited data

How the results depend on the processing

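Under 15 alternatives none of the 8 genes changed direction, and the median change of the 8 stayed between -0.44 and -0.30, both reached by leaving out an Rbpj-deficient array. The 3 calls held under 9 alternatives and were lost under 6, the 4 that left out 1 array, the replicate block and the absence of a filter. Over the 15, limma adjusted p-values ran from 0.00455 to 0.260 for Nudt17, 0.00455 to 0.261 for Il4i1 and 0.0107 to 0.299 for Serpinb9. Fewer arrays, or a block that uses a degree of freedom, leave less to estimate the spread, but whether this ended the calls was not tested. With a replicate block limma called 0 genes (3677 at an unadjusted p under 0.05), 0 of the 8 and 0 of the other mature genes. The deviations of same-numbered arrays had a correlation of -0.05 across genes, which cannot tell whether those arrays were paired. Without a filter 32494 genes were tested and 0 were called (3654 at an unadjusted p under 0.05), with 0 of the 8 and 0 mature genes; the cause was not tested. Leaving out 1 array gave 0 to 136 genes called, 0 of the 8 lower, 0 mature genes lower and a median of the mature genes of -0.29 to -0.19 (-0.19 without Rbpj-deficient replicate 2). The 0 calls came with either Rbpj-deficient array left out (3589 and 2960 at an unadjusted p under 0.05), against 119 and 136 with control replicate 1 or 2 left out. Normexp called 896 genes, 7 mature genes lower and 2 relatives. A trended and robust variance prior called 1548 genes (854 lower and 694 higher, against 151 lower and 187 higher), 5 of the 8 lower, with Cacnb3 (limma adjusted p = 0.0292) and Tmem123 (limma adjusted p = 0.0297) added, 18 mature genes lower, 1 higher, and 3 relatives. Median scaling called 439 genes, 210 of them lower, and 4 mature genes lower. A filter on all 4 arrays called 470 of 17049 genes, 223 of them lower, with 4 mature genes lower and 1 relative. The cause of these shifts was not tested. Signal over background limits Apol7c most.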
